A study of Homo sapiens with 2 samples.

Results

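Histone chaperones escort newly made and recycled histones so that these highly basic proteins reach DNA in an ordered way. The list described here holds 10 genes: NASP, ASF1A, ASF1B, CHAF1A, CHAF1B, HIRA, DAXX, SSRP1, SUPT16H and NAP1L1. They were picked by name with earlier results of the same arrays known, among them the value of NASP, so the differences below describe the genes and test nothing. Of the 10, 9 had a named probe set on the array, 1 each, among 17687 named genes in all. No named probe set was assigned to HIRA, which is not analysed here.

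The cells were DLD-1, an established human colorectal cancer line grown in culture medium with serum. One culture received the AllStars negative control siRNA (siControl, genotype control) and the other an siRNA named Hs_YY1_1 against the transcription factor YY1 (siYY1, genotype YY1 knockdown). Both siRNAs were used at 5 nmol/L with Lipofectamine RNAiMAX, and total RNA was taken after 3 days for a whole-transcript GeneChip. Each group was 1 array from 1 line with 1 siRNA, so the spread between cultures is unknown, no p-value is given, and every value compares these 2 arrays. No named probe set was assigned to YY1 either, so the groups rest on their labels. With a single siRNA against YY1, loss of YY1 and off-target effects of that siRNA cannot be told apart for any gene, and neither was tested. Of 10 named colorectal epithelial markers 8 were bright enough to be compared, with EPCAM at 16.3 and 16.5 and CDX2 at 13.1 and 12.3 (log2), while CDX1 and LGALS4 were dim. Of 5 fibroblast, 4 leukocyte and 4 endothelial markers with a named probe set, 1, 1 and 0 were bright enough.

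In a dividing cell, histones H3 and H4 are held in soluble form by NASP and pass to ASF1. They are then handed to the CAF-1 complex at replication forks or, independently of replication, to the HIRA complex. DAXX, with ATRX, deposits the replacement histone H3.3 at heterochromatin and telomeres. FACT, a dimer of SSRP1 and SUPT16H, takes nucleosomes apart and rebuilds them around polymerases, and NAP1L1 carries H2A and H2B. Many of these genes are most active in cells that replicate DNA. In bulk RNA, fewer cells in that state and less RNA per cell cannot be told apart.

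YY1 recognises a short core, CCATNTT, and the promoters of the list were searched for it on both strands. The motif was chosen after the array values were seen. RefSeq windows of 300 bases on GRCh38.p14, 250 before and 50 after each gene start, were at hand for 9 of the 10 genes, and DAXX had none. The core occurred in 2 of the 9, NASP and ASF1A, once each and on the sense strand. Of all 35116 such windows, 15.6% held it, a share of windows of any gene, where 1 gene can have several. Among genes compared with a single window, 961 held the core and 4289 did not. The NASP and ASF1A windows are printed here in part, with that of ASF1B, the paralog of ASF1A, which lacks the core. Capitals mark the core.
NASP, 250 bases before its start, chr1:45583791-45584040, plus strand: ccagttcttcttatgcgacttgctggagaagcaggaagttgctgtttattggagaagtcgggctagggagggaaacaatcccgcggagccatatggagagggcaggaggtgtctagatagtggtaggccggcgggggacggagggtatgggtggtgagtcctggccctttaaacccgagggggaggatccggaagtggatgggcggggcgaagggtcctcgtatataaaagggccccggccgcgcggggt
NASP, the core just after its start, chr1:45584041-45584067, plus strand: ctctaatctgCCATTTTctgtccctga
ASF1A, 250 bases before its start, chr6:118893902-118894151, plus strand: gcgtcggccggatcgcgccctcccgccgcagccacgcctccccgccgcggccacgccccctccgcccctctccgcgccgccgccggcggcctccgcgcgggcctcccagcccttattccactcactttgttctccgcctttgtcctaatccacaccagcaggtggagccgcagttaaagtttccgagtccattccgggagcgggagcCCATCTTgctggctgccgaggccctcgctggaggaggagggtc
ASF1B, 250 bases before its start, chr19:14136590-14136839, minus strand: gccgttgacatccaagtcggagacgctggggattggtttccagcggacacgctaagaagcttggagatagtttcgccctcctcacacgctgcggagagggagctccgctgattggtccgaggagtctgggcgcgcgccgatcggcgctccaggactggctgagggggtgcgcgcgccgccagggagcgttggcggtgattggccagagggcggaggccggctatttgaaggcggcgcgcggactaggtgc

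In NASP the core spans bases 11 to 17 counted from the start of the gene, and in ASF1A it lies at -43 to -37. A match is a description of letters, and binding of YY1 was not measured. Across the genes compared that had a single window, 10.9% of the 961 with the core had a level in siYY1 that was lower by 2-fold or more, against 9.77% of the 4289 without it. The shares that were higher by 2-fold or more were 7.28% and 7.44%. SUPT16H, which was also past 2-fold lower, had no match in its window.

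The gene for the soluble reservoir of H3 and H4 had the largest difference of the list. NASP had a log2 value of 13.5 on the siControl array and 10.3 on the siYY1 array, which is a difference (siYY1 minus siControl) of -3.26, or a 9.57-fold lower level. Its siYY1 value stayed well above the brightness minimum of 7.50 used for the comparison, so this difference was read from bright values on both sides. In the quantile normalized values no other gene among the 8747 compared had a lower difference, and the next was ESS2 at -3.11. The spread of differences over these genes was an SD of 0.75. RefSeq lists 1 pseudogene named after NASP, and the probe sequences, which would show whether it shares signal, were not used here.

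The ASF1 paralogs, which share the role of passing H3 and H4 onward, lay on opposite sides of 0. ASF1A, which works with HIRA as well as with CAF-1, was at 11.8 in siControl and 10.3 in siYY1, 2.94-fold lower at -1.56. ASF1B, the form linked to proliferating cells, was at 12.9 and 13.3, a difference of 0.33. The ratio of ASF1B to ASF1A was thus 3.71-fold higher in the siYY1 array. That ratio compares paralogs within an array, and it was between 3.65-fold and 3.71-fold higher under the 4 scalings tried.

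Of CAF-1, which deposits H3 and H4 behind the replication fork, both subunits on the 10-gene list were below 0 and neither passed 2-fold. CHAF1A, the large subunit that docks on PCNA, was at 10.0 and 9.82, a difference of -0.22. CHAF1B, the middle subunit, was at 12.1 and 11.2, a difference of -0.88. With the values as deposited CHAF1B was at -1.02, past 2-fold. RBBP4, the small subunit shared with other chromatin complexes, was at -0.38 and PCNA at -0.10. RefSeq lists 7 pseudogenes named after RBBP4 and 4 named after PCNA, and shared signal was not tested.

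DAXX was at 9.53 (siControl) and 9.75 (siYY1) and so differed by 0.22. ATRX, its remodelling partner, was at -0.50. Of the partners of HIRA, UBN1 was at 0.15 and CABIN1 at 0.12, while UBN2, the paralog of UBN1, was 2.14-fold higher at 1.10.

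The FACT subunits, which form a single dimer, differed in opposite directions. SUPT16H was at 14.4 in siControl and 12.9 in siYY1, 2.86-fold lower at -1.51. RefSeq lists 1 pseudogene named after SUPT16H, and shared signal was not tested, which also bears on the ratio to SSRP1. SSRP1 was at 13.3 in siControl and 14.5 in siYY1, 2.26-fold higher at 1.18. The ratio of SSRP1 to SUPT16H was therefore 6.45-fold higher in the siYY1 array, and from 6.33-fold to 6.45-fold under the 4 scalings. The side of 2-fold on which SSRP1 lay was less firm: it was at 0.9996, just under 2-fold, with the values as deposited and at 0.93 with arrays centred on their medians.

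NAP1L1, a carrier of H2A and H2B, was at 14.96 in siControl and 15.77 in siYY1, 1.75-fold higher at 0.81. Its paralog NAP1L4 was at -0.75, so this pair too lay on opposite sides of 0. RefSeq lists 3 pseudogenes named after each of them. Their probe sets may share signal with these copies, and the values are uncertain to that extent.

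**Figure D1:**
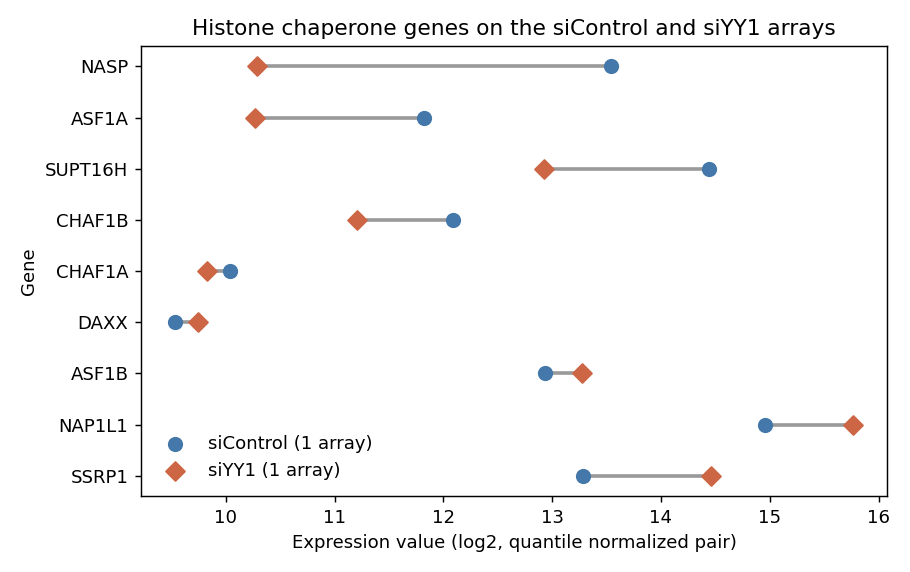
Expression value (log2, quantile normalized pair) of the 9 measured histone chaperone genes, with a circle for the siControl array, a diamond for the siYY1 array and a line joining them. NASP has the longest line, from 13.5 to 10.3, SUPT16H runs from 14.4 to 12.9 and SSRP1 runs the other way, from 13.3 to 14.5.

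Of the 9 genes, 3 were lower in siYY1 by 2-fold or more (NASP, ASF1A and SUPT16H) and 1 was higher by as much (SSRP1). Of the 8747 genes compared, 9.37% were lower and 7.92% higher by 2-fold or more. Since the list was chosen with these values known, its counts are not read against these shares. All 9 genes were above the brightness minimum on both arrays. Among the 5574 genes within their range of brightness, 9.26% were lower and 8.45% higher by that much, so the background was about as large there. The median of the 9 was -0.22, against -0.01 over all genes compared, with 5 genes below 0 and 4 above. Over all genes compared, 4412 were below 0 and 4332 above.

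The balance of directions over the whole array moved with the scaling, which bears on genes near 2-fold. Of the genes past 2-fold, 45.8% were higher after quantile normalization, 33.4% with the values as deposited and 26.0% with arrays centred on their medians. The median difference over the genes compared was -0.13 with the values as deposited. No measured gene of the list changed its sign under any scaling. NASP ranged from -3.48 to -3.26, ASF1A from -1.76 to -1.54 and SUPT16H from -1.74 to -1.51.

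**Figure D2:**
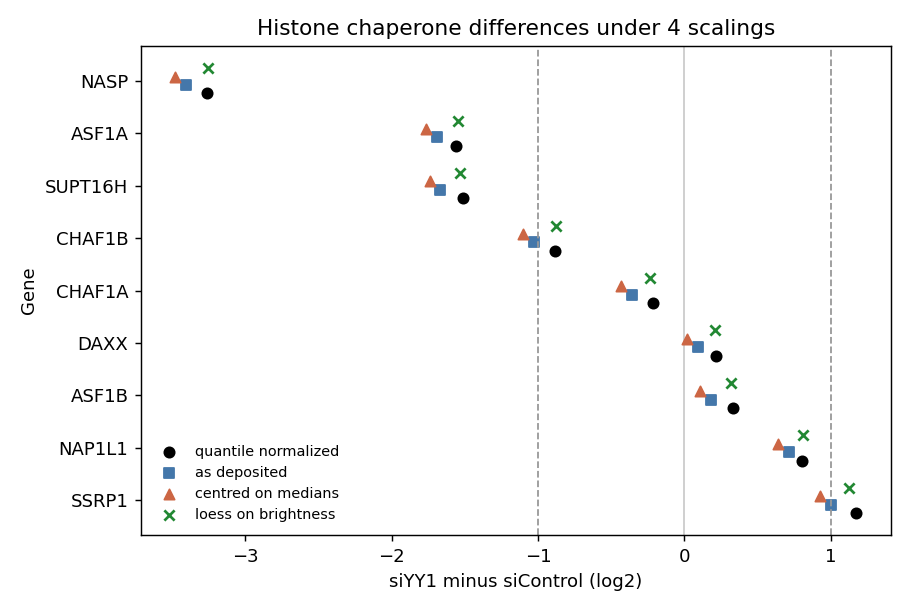
Difference (siYY1 minus siControl, log2) of the 9 measured histone chaperone genes under 4 scalings of the arrays, with dashed lines at 2-fold. NASP, ASF1A and SUPT16H lie beyond the lower line under each scaling, while SSRP1 and CHAF1B each lie on either side of a line depending on the scaling.

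Other histone chaperones and their partners were taken from a written list of 37 genes, of which 34 were bright enough to be compared. By 2-fold or more, 3 were lower and 3 higher, or 8.82% each, with a median of 0.08 that was -0.045 with the values as deposited. These shares lie close to those of all genes compared. The lowest was GRWD1, a histone-binding protein that also helps load the replicative helicase, at 12.8 in siControl and 10.6 in siYY1, 4.598-fold lower at -2.20. IPO4, the importin that carries H3 and H4 with ASF1 into the nucleus, was 2.29-fold lower at -1.20. SART3, which binds H2A and H2B and also recycles spliceosomal particles, was at -1.10.

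Higher were CDAN1 at 1.11, UBN2 at 1.10 and APLF at 1.004. CDAN1 encodes codanin, which binds ASF1 in the cytoplasm, and APLF is a repair factor with a histone-binding acidic tail. With the values as deposited 1 of these 3, CDAN1, remained past 2-fold. HAT1, the enzyme that acetylates new H4 in the same route as NASP, was at 0.37. MCM2, a helicase subunit that also holds H3 and H4, was at 0.04. TONSL, which reads newly deposited H4, was too dim to be compared.

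Linker histones and replacement variants, the cargo of several of these chaperones, had 12 genes bright enough of 16, with a median of -0.19, 2 lower by 2-fold or more (16.7%) and 0 higher, against 9.37% and 7.92% of all genes compared. NASP is also a chaperone of linker histones. Among those, H1-5 was at 15.07 in siControl and 14.01 in siYY1, 2.09-fold lower at -1.06. H1-4 was at -0.43, H1-2 at -0.39 and H1-3 at 0.61. Of the 12 linker and variant genes compared, 11 were below 0, and H1-3 was the 1 above. Over all 8747 genes compared, 4412 were below 0 and 4332 above. Of the 11, H2AX at -0.03 and H2AZ1 at -0.04 lay close to 0, and the list was chosen with earlier results known. H1-1 and H1-10 were dim.

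The lowest variant was MACROH2A2, which is found on inactive chromatin, 2.67-fold lower at -1.41, while its paralog MACROH2A1 was at -0.11. H3-3B, a gene for the H3.3 that HIRA and DAXX deposit, was at -0.16, and H3-3A had no named probe set. CENPA, the centromeric H3, was at -0.51, and HJURP, its dedicated chaperone, at -0.52.

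Core histone genes of the replication-dependent clusters had a median near 0, with single genes from -1.09 to 0.77. Of 58 genes, 43 were bright enough, with a median of 0.02, which was -0.11 with the values as deposited. The only one past 2-fold was H3C13 at -1.09, or 2.33% lower and 0 higher against 9.37% and 7.92% of all genes compared. These genes are near-identical copies of each other within a histone type. Shared signal between probe sets makes single genes, and the counts past 2-fold, uncertain. Among the 7 genes that make or process histone mRNA, 6 were bright enough. SLBP, which binds the stem-loop at the end of these transcripts, was 2.02-fold higher at 1.01, under 2-fold with the values as deposited. ZNF473, part of the U7 particle that cuts them, was 2.29-fold lower at -1.20.

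**Figure D3:**
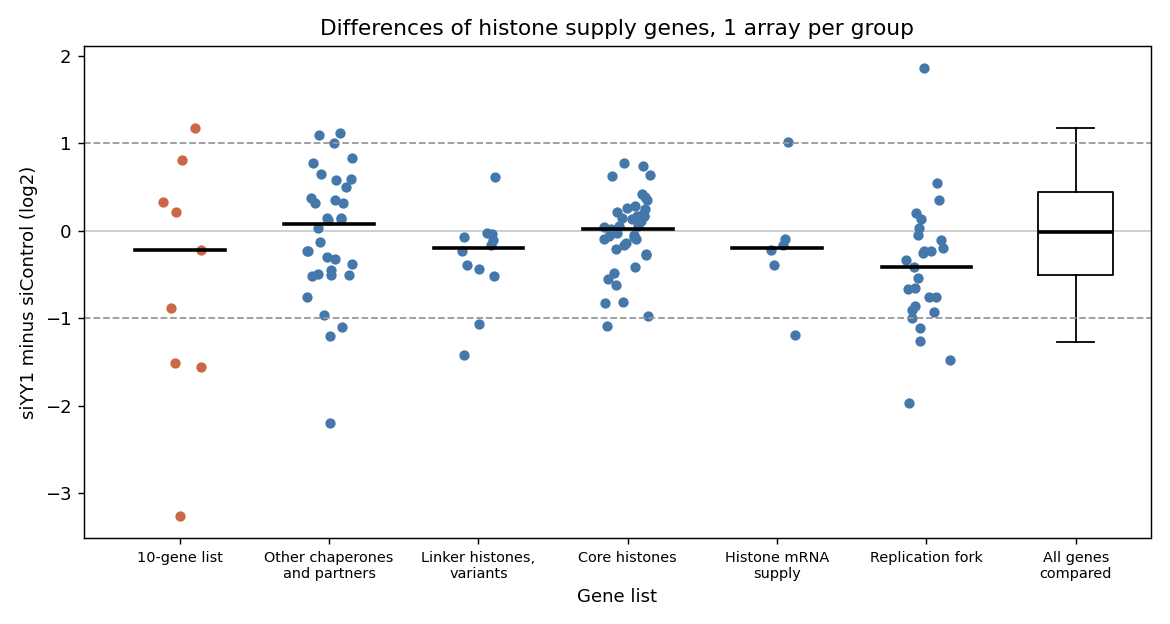
Difference (siYY1 minus siControl, log2) of each gene bright enough to be compared, by list, with a black line at each list's median and dashed lines at 2-fold. The box on the right spans the 25th to 75th percentile of all 8747 genes compared, and its whiskers run from the 5th to the 95th. NASP at -3.26 and GRWD1 at -2.20 lie lowest, and the core histones run from -1.09 to 0.77 with a median of 0.02.

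By distance between the log2 values on both arrays, the genes nearest to NASP were IDI1 at 0.68, GRWD1 at 0.79 and RBM14-RBM4 at 0.82. Those nearest to SSRP1 were ARPC1A at 0.17, PDP1 at 0.23 and TMEM59 at 0.26. IDI1, GRWD1 and RBM14-RBM4 differed by -2.30, -2.20 and -2.11 between the arrays. They were picked for values near those of NASP on both arrays, so a difference in its direction follows by construction. RBM14-RBM4 is a read-through of neighbouring genes and can share signal with them. This measure rests on 2 arrays and on the brightness of different probe sets, which is no measure of relative abundance.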

How the data were processed

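RNA from 2 cultures was measured on 1 whole-transcript array each. The authors deposited 1 value per probe set and array, taken here as log2 from their range of 2.51 to 17.9. For software, normalization and centring, the sources used here give nothing. Deposited medians were 6.86 (siControl) and 6.93 (siYY1), and the quartiles differed by up to 0.18, so the pair was quantile normalized. The direction is siYY1 minus siControl, from the labels.

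Gene symbols came from the platform annotation (17709 of 21448 probe sets, 1 symbol each), updated by gene ID through RefSeq, GRCh38.p14. Values of 20 genes with several probe sets were averaged. The 8747 genes compared were protein-coding, with the higher of both values at or above the median over genes, 7.50. Genes past 2-fold were counted, with no test. The number of arrays limits the precision.

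The members and lists were chosen with earlier results of these data known. Named genes were the list, partners fixed by name, genes past 2-fold in the other lists, and the 3 nearest to NASP and to SSRP1. Other genes named were chosen after their values were seen. Alternatives covered scaling, probe sets, brightness, fold and gene type. The computation was tested on simulated data. Computation ran in Python 3.11.15 with statsmodels 0.14.6 for loess, scipy 1.17.1 for ranks, pandas 2.3.3 and numpy 2.4.6 for tables, and matplotlib 3.10.9 for plots.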

Additional observations from a re-analysis of the deposited data

How the results depend on the processing

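The 9 measured chaperone genes kept their signs under every alternative that gave them a value. CHAF1A and DAXX had none at the 75th percentile of brightness. With 1 array per group, no alternative speaks to the spread between cultures, and the scale and scaling of the deposited values remain inferred. No paired analysis was possible because each group holds 1 array. Loess on brightness, the brightest probe set and all gene types left every count within 1.5 times and every median on its side of 0. The causes of the movements below were not tested, beyond what each setting changes by construction.

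With the values as deposited, CHAF1B was at -1.02 and SSRP1 at 0.9996, just under 2-fold, so that 0 of the list were at least 2-fold higher. The other chaperones and partners then had 1 gene 2-fold higher and a median of -0.045, and core histones 2 lower and a median of -0.11. Histone mRNA supply had 0 higher, and the replication fork 8 lower and 1 higher. The background was 12.2% lower and 6.13% higher. With arrays centred on their medians, CHAF1B was at -1.10 and SSRP1 at 0.93, and again 0 of the list were higher. The other chaperones had 0 higher and a median of -0.12, and core histones 4 lower and a median of -0.18. Histone mRNA supply had 0 higher, and the fork 8 lower and 1 higher. The background was 14.3% lower and 5.03% higher.

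Without a brightness filter the other chaperones had a median of -0.046 and core histones of -0.020, 1 linker or variant gene was 2-fold higher, and the background was 5.67% lower and 4.62% higher. At the 75th percentile of brightness fewer genes were left, and the median of the list was -0.88. The other chaperones had 0 higher and a median of -0.18, and linker histones and variants 1 lower. Histone mRNA supply had 0 lower and a median of 0.42, with only SLBP at 1.01 and ERI1 at -0.17 left. The fork had 3 lower and 0 higher. Of all genes compared at this setting, 8.67% were lower and 8.31% higher.

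At 1.5-fold the list had 4 lower and 2 higher, and the other chaperones 5 lower and 7 higher. Linker histones and variants had 2 lower and 1 higher, and core histones 5 lower and 4 higher. The fork had 12 lower and 1 higher. The background was then 21.8% lower and 19.4% higher. At 3-fold the list had 1 lower (NASP) and 0 higher, and the other chaperones 1 lower (GRWD1) and 0 higher. The fork had 1 lower (GINS4) and 1 higher (POLE). Linker histones, core histones and histone mRNA supply then had 0 lower, and histone mRNA supply 0 higher, over a background of 2.44% lower and 1.89% higher.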

Other observations

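The replication fork, where CAF-1 works, was described through 28 genes, of which 27 were bright enough to be compared. Their median was -0.41, against -0.01 over all genes compared, with 5 genes lower by 2-fold or more (18.5%) and 1 higher by as much (3.70%), against 9.37% and 7.92% of all genes compared. With the values as deposited, 8 genes were lower and 1 higher by 2-fold or more, over a background of 12.2% lower and 6.13% higher. GINS4, a subunit of the helicase cofactor GINS, was at 10.2 in siControl and 8.27 in siYY1, 3.92-fold lower at -1.97. The helicase subunits MCM5 and MCM4 were at -1.47 and -1.002, the primase subunit PRIM1 at -1.11 and the ligase LIG1 at -1.26, the last with a siYY1 value of 7.38, below the brightness minimum. POLE, the leading-strand polymerase, was 3.62-fold higher at 1.86. PCNA, the clamp on which CHAF1A docks, was at 14.8 and 14.7, with 4 pseudogenes named after it in RefSeq.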
